A study of Homo sapiens with 6 samples.

Results

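Genes of transforming growth factor beta (TGF-beta) signalling were examined in U87-EV tumours grown under the skin of mice, with and without the VEGF antibody bevacizumab. The members were 10 genes: the ligand genes TGFB1, TGFB2, TGFB3 and INHBA, the receptor genes TGFBR1, TGFBR2 and TGFBR3, the latency protein genes LTBP1 and LTBP2, and the inhibitor gene SKIL. They were taken by gene symbol from the platform annotation of the array, which pairs 28 of the 54675 probe sets with 1 of these symbols alone. They make up 10 of the 19775 genes that have a probe set of their own.

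The 6 arrays measured RNA from tumours of an established human glioblastoma line, U87-EV (the labels do not expand EV), implanted in Matrigel into female BALB/c SCID mice aged 6 to 8 weeks. SCID mice lack mature T and B cells but keep macrophages, vessels and fibroblasts of their own, and the human arrays did not separate host RNA from tumour RNA. The control group of 3 arrays came from mice given saline, and the treated group of 3 arrays from mice given bevacizumab at 10 mg/kg into the peritoneum, repeated every 3 days from a tumour volume of 150 to 200 mm3 until a diameter near 15 to 30 mm. Nothing in the labels ties each array to a separate mouse, and p-values therefore reflect array-to-array spread, part of which may be technical.

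TGF-beta is made as a precursor whose prodomain stays folded around the mature cytokine and keeps it inactive. Latent TGF-beta binding proteins such as LTBP1 tie this complex to fibrillin fibres of the matrix, from which integrins and other proteins release it. The freed ligand binds the type II receptor TGFBR2, which switches on the type I receptor TGFBR1, and TGFBR1 phosphorylates SMAD2 and SMAD3. TGFBR3, or betaglycan, presents ligand to TGFBR2 and is needed most by TGFB2. Activin A, a dimer of the INHBA product, uses its own receptors to reach the same SMADs, and SKIL (SnoN) holds SMAD complexes in check. In glioblastoma the pathway is known for roles in invasion, immune suppression and the mesenchymal state.

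Bevacizumab tumours had less TGFB3 message and more message for TGFBR1 and LTBP1. TGFB3 was 1.83-fold lower, LTBP1 1.54-fold higher and TGFBR1 1.69-fold higher, the last with a call that most fits without 1 array did not keep. The other 7 genes did not pass the test. A gene was called where its limma p was under 0.05 after Benjamini-Hochberg adjustment across the 10233 genes tested. All 10 members were bright enough to test (a mean of at least 4 on the log2 scale), so none was lost to the filter. Of the 10 genes 2 were called higher, where 9.09% of all genes tested were, and 1 was called lower, where 9.97% were. In either direction 3 of 10 stood against 19.1% of all genes. In 6 of the 10 the arrays of the groups did not overlap, against 41% of all genes tested. The median difference of the members was 0.28 on the log2 scale and that of all genes tested was -0.01.

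The start regions of the 3 called genes are shown first, because these are the members that passed the test. The sequences are RefSeq windows of 300 bases in build GRCh38.p14, running 5′ to 3′ along the gene from 250 bases before the start to 50 bases after it. All 10 members matched the RefSeq table, with 21 windows in all. Capitals mark every match, on either strand, to ACGTG or GCGTG (core letters of the hypoxia response element), to TGACGTCA (the cyclic AMP response element) or to TATAAA (the core of the TATA box). TGFB3 has 2 listed windows, at chr14:75982962-75983261 and chr14:75981946-75982245, both on the minus strand. The TGFBR1 window is the first of its 8 listed, at chr9:99104863-99105162 on the plus strand. The LTBP1 window is the first of its 3 listed, at chr2:32946703-32947002 on the plus strand.
TGFB3, outer start: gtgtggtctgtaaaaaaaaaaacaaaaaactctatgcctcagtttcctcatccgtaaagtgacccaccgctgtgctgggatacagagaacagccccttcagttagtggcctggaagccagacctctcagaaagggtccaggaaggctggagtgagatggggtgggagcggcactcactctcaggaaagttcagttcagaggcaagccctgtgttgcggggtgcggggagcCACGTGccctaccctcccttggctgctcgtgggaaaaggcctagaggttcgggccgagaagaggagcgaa
TGFB3, inner start: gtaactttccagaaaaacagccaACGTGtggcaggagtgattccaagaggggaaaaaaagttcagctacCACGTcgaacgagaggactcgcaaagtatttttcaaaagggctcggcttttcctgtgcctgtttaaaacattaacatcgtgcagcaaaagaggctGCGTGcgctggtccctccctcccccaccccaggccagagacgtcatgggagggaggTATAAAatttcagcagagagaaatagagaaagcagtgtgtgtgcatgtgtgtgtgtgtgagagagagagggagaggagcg
TGFBR1, first listed start: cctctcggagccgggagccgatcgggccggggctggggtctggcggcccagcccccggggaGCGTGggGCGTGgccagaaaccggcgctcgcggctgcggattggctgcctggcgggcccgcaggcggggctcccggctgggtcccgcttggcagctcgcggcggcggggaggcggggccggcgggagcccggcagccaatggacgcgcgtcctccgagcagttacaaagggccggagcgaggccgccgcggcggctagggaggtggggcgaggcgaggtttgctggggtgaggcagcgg
LTBP1, first listed start: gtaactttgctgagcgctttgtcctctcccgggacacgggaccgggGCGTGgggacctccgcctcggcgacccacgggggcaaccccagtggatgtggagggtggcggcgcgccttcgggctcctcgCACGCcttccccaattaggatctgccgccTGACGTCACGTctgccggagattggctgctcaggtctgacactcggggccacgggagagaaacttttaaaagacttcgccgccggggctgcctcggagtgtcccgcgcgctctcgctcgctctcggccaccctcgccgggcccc

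The inner TGFB3 start has TATAAA from position -30 to -25, and its outer start has no such match; these letters occurred in 11.5% of all 35116 RefSeq windows of the same length and in 3 member windows, the others of TGFB2 and INHBA. LTBP1 has TGACGTCA from -94 to -87, with a CACGT on the opposite strand that overlaps it from -88 to -84. SKIL holds TGACGTCA too, from -54 to -47. This letter string occurred in 1.85% of all windows and among the members in LTBP1 and SKIL. ACGTG, searched on both strands, occurred in 21.4% of all windows and in 7 of the 21 member windows, which belong to 6 genes. GCGTG occurred in 36.5% of all windows and in 10 member windows, also of 6 genes. The SMAD palindrome GTCTAGAC (0.202% of windows) and the CAGA box AGCCAGACA (0.288%) occurred in no member window, and the AP-1 site TGANTCA (7.71%) in 1, of TGFBR2. GGGCGG, the GC box, occurred in 45.0% of windows and in 9 member windows but is not capitalised here. These matches describe letters only. GCGTG stands in the inner window of TGFB3, which fell, and in the windows shown of LTBP1 and TGFBR1, which rose.

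Among the ligands, TGFB3 was the only 1 called. It read 9.67, 9.55 and 9.62 on controls 1 to 3 and 8.71, 8.79 and 8.73 on bevacizumab 1 to 3, as deposited GCRMA values on the log2 scale. Every bevacizumab array lay below every control, with little spread on either side. The level went from 9.61 ± 0.06 to 8.74 ± 0.04 (SD, n = 3 each), a log2 difference of -0.87 (SE 0.08, limma adjusted p = 0.00359). TGFB3 kept this call whichever of the 6 arrays was left out. Its second probe set lay at the lowest value of the table on all arrays and has no order.

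Markers of mural cells, the pericytes and smooth muscle cells that wrap vessels, were read in the same tumours. Of 10 such markers, 8 were tested, 3 of them fell and none rose, where 9.97% and 9.09% of all genes tested did. RGS5 (-2.85) and ACTA2 (-1.79) fell on the log2 scale, and KCNJ8, under 4 on all bevacizumab arrays, was at least 3.17-fold lower, taking 4 as its level there. The summed linear signal of the 10 markers ran from 8658 to 10942 on controls and from 3604 to 4274 after bevacizumab. Most of it was ACTA2, and without that gene the sum was 2185 to 2644 on controls and 1516 to 2185 after bevacizumab. The other 5 tested did not pass, with differences above 0 for PDGFRB (0.30), CSPG4 (0.16) and MCAM (0.42) and below 0 for NOTCH3 (-0.51) and ABCC9 (-0.76), and DES and MYH11 were under 4 on every array. Which cells, of the tumour or of the host, gave the RNA of these genes was not tested. Whether this RNA has a part in the TGFB3 difference was not tested either. In bulk tumour RNA, fewer cells of a type and less RNA per cell cannot be told apart.

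TGFB1, the most studied of the 3 isoforms, spread widely after treatment. Its arrays read 10.19, 9.97 and 9.91 in controls and 9.30, 10.46 and 10.77 after bevacizumab. Bevacizumab 1 lay below all controls and the other two above them. The difference was 0.15 (SE 0.38, limma adjusted p = 0.801), and it was -0.15 without bevacizumab 3. Of platelets, a rich store of TGF-beta protein, all 6 markers tried, PF4 and PPBP among them, were under 4 on every array. The host was a mouse and the probe sets are human, so these low values do not show whether platelets were present.

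TGFB2, the isoform long associated with glioblastoma, has 5 probe sets, of which 2 were bright enough to test. The brighter read 6.25, 5.95 and 6.27 in controls and 6.25, 6.32 and 6.62 after bevacizumab, a difference of 0.24 (SE 0.14, limma adjusted p = 0.277). The other tested probe set ran the opposite way, with 6.44, 6.22 and 6.52 in controls and 5.71, 6.06 and 6.48 after bevacizumab (-0.31, adjusted p = 0.361 over all probe sets). Groups overlapped on both, so no direction can be read for TGFB2.

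INHBA, the activin A subunit gene, had the largest difference of the 10 members without passing the test. It read 5.74, 5.18 and 5.04 in controls and 6.71, 5.94 and 8.26 after bevacizumab. All treated arrays were above all controls, and bevacizumab 3 stood well above the other two. The difference was 1.65 (SE 0.58, limma adjusted p = 0.0981), or 3.14-fold. It was 1.01 without bevacizumab 3, 0.82 with the mean of all probe sets and 2.76 with the ACTB covariate described further on, and passed in none of these. On a dimmer INHBA probe set, left out of the tests, only bevacizumab 3 exceeded 4, at 5.45.

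**Figure D1:**
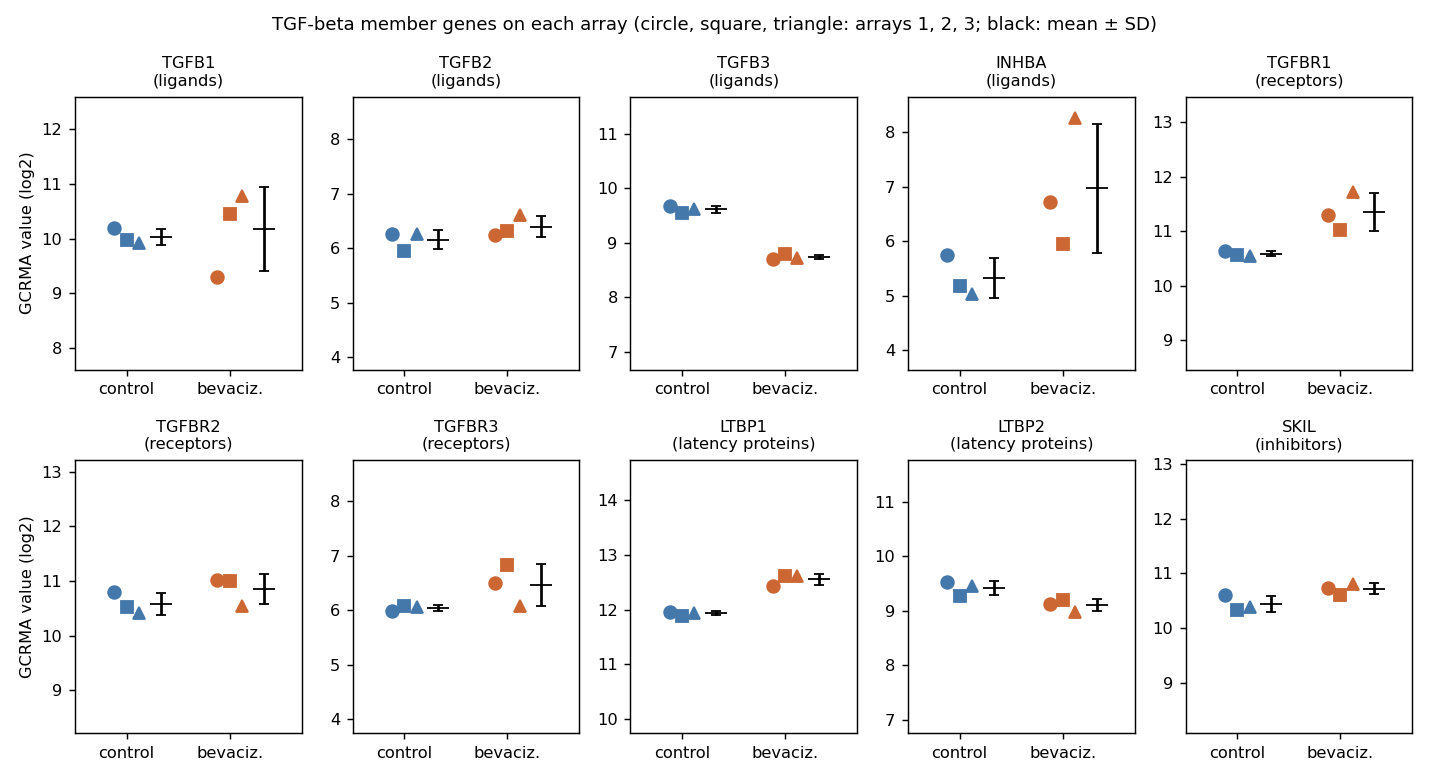
Deposited GCRMA values (log2, vertical axis; every panel spans the same range of 5 units around its own centre) of the 10 member genes on the 3 control (blue) and 3 bevacizumab (orange) arrays, with mean ± SD in black. TGFB3 lies lower on every bevacizumab array and LTBP1 and TGFBR1 higher, while TGFB1 and INHBA spread widely after bevacizumab.

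Of the receptors, TGFBR1, the signalling kinase of the pathway, was higher. Its brightest probe set read 10.64, 10.56 and 10.55 on the controls and 11.30, 11.02 and 11.71 on the treated arrays. The controls lay within a narrow band and each bevacizumab array was above it. The level went from 10.58 ± 0.05 to 11.34 ± 0.35 (SD, n = 3 each), a log2 difference of 0.76 (SE 0.18, limma adjusted p = 0.0348). The call was lost without control 1, control 2, control 3 or bevacizumab 1 (adjusted p between 0.0649 and 0.111), and also with the replicate number as a block (adjusted p = 0.0675) or with no filter on dim genes (adjusted p = 0.147). Its other 2 probe sets also ran upward, by 0.57 and 0.21, but their groups overlapped and neither passed.

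TGFBR2, the ligand-binding receptor, did not pass on either probe set. The brighter read 10.80, 10.52 and 10.41 in controls and 11.01, 11.01 and 10.54 after bevacizumab (0.28, SE 0.17, limma adjusted p = 0.297). The dimmer had a difference of the opposite sign, -0.47 (adjusted p = 0.259 over all probe sets). Both sets of groups overlapped.

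TGFBR3, the betaglycan gene, was dim. It read 5.98, 6.07 and 6.06 in controls and 6.50, 6.83 and 6.07 after bevacizumab. Bevacizumab 3 fell within the controls and the other two lay above them. The difference of 0.43 (SE 0.19, limma adjusted p = 0.167) was 0.63 without bevacizumab 3, where it passed (adjusted p = 0.0382).

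Of the latency protein genes, LTBP1 rose on both of its probe sets. The brighter read 11.95, 11.89 and 11.95 in controls and 12.43, 12.62 and 12.61 after bevacizumab, with a clear gap between groups. The level went from 11.93 ± 0.04 to 12.55 ± 0.11 (SD, n = 3 each), a difference of 0.62 (SE 0.09, limma adjusted p = 0.00933). The dimmer probe set rose by 0.79 (adjusted p = 0.0344 over all probe sets), from 9.28, 8.71 and 9.13 to 9.77, 9.79 and 9.93. At gene level LTBP1 kept its call whichever of the 6 arrays was left out.

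LTBP2, a related fibrillin-binding protein that does not bind latent TGF-beta, had values of 9.53, 9.28 and 9.46 in controls and 9.12, 9.21 and 8.99 after bevacizumab. The treated arrays all lay under the controls, by little. The difference of -0.32 (SE 0.11, limma adjusted p = 0.0892) did not pass, nor did that of the dimmer probe set (-0.29, adjusted p = 0.471 over all probe sets).

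SKIL read 10.60, 10.33 and 10.38 in controls and 10.74, 10.61 and 10.81 after bevacizumab. The lowest treated array lay just above the highest control, and the difference of 0.28 (SE 0.11) did not pass (limma adjusted p = 0.123). Of its 5 probe sets 2 were tested, and the second had a difference of 0.65 with overlapping groups (adjusted p = 0.334 over all probe sets).

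Across the 28 member probe sets, 18 were tested and 10 were too dim, 5 of these at the lowest value of the table on every array. When each of 21667 probe sets was tested on its own, 3 member probe sets were called higher (2 of LTBP1 and 1 of TGFBR1) and 1 lower (TGFB3). Over all probe sets tested 6.39% were called higher, 6.58% lower and 13% in either direction. The TGFBR1 probe set passed narrowly, at an adjusted p of 0.0498. With any 1 array left out, 0 or 1 member probe set was called higher (0 without control 1 or control 2) and 1 was called lower. Where a gene had more than 1 tested probe set, the signs differed for TGFB2 and TGFBR2 and were the same for TGFBR1, TGFBR3, LTBP1, LTBP2 and SKIL.

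**Figure D2:**
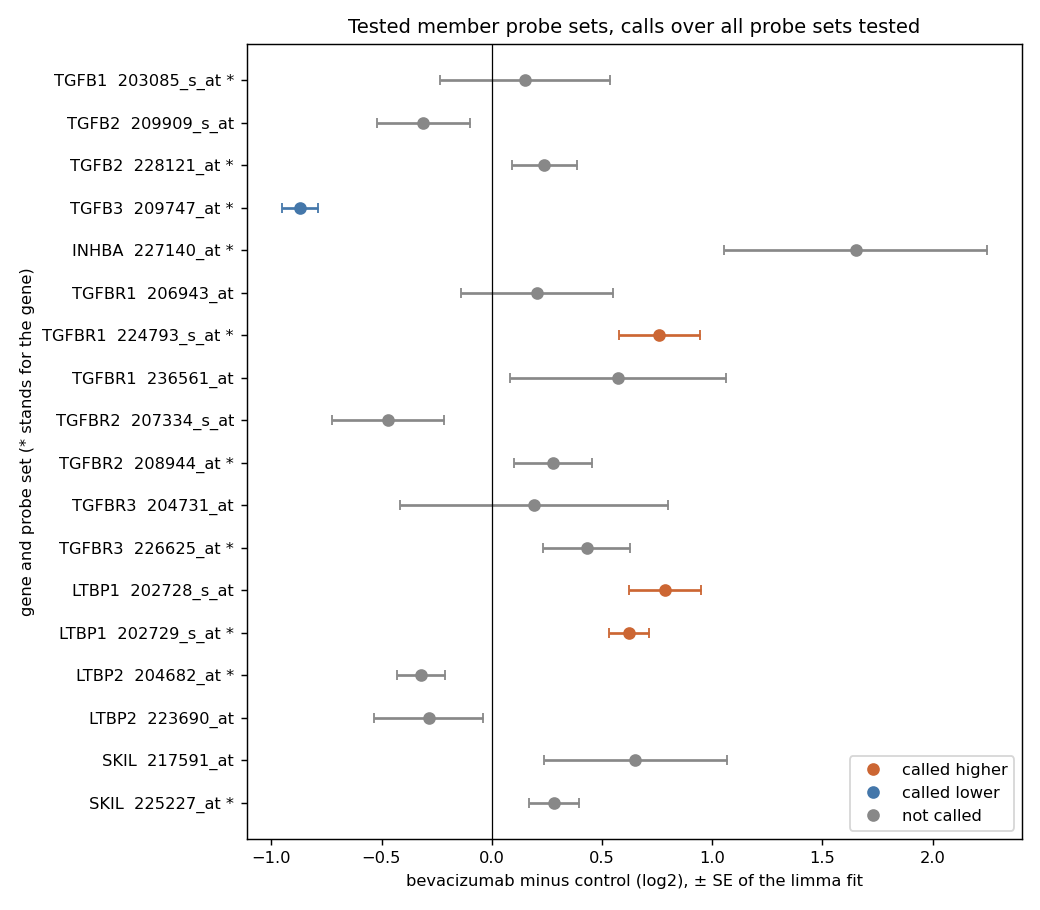
Difference between bevacizumab and control arrays (log2, horizontal axis, ± SE of the limma fit) for the 18 tested member probe sets, with the probe set that stands for each gene starred. Both LTBP1 probe sets and 1 of 3 for TGFBR1 were called higher (orange), and 1 TGFB3 probe set was called lower (blue).

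The wider pathway was read from 5 lists of other genes, chosen by function with earlier results of these data known. Their shares beside those of all genes are therefore descriptions. Of 58 distinct genes tested from these lists, 14 were called higher and 5 lower, where 9.09% and 9.97% of all genes tested were, with a median difference of 0.23. The share called lower is near that of all genes. With 1 array left out these counts were 6 to 14 and 2 to 5, the lowest of each without control 1 (6 higher, 2 lower). Without control 2 they were 6 and 3, and without bevacizumab 2 they were 9 and 3. The antagonist follistatin rose most in the list of storage, activation and antagonist genes, and the receptors and SMADs mostly did not pass.

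Among 4 other ligand genes tested, INHBE, which encodes the activin subunit beta E, was higher by 1.20 (SE 0.31, limma adjusted p = 0.0439). This call was lost whichever of the 6 arrays was left out. The 1 INHBE probe set did not pass over all probe sets (limma adjusted p = 0.0620). None of the 4 genes was called lower. INHBB, INHA, NODAL, LEFTY1 and MSTN were under 4 on every array.

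Of 8 other receptor and co-receptor genes, NRP2 alone passed, where 19.1% of all genes tested did. NRP2, a semaphorin and VEGF-C co-receptor that also binds TGF-beta, rose by 1.87 (SE 0.26, limma adjusted p = 0.00893). The other 7 had differences above 0 without passing. ENG, or endoglin, a co-receptor abundant on endothelium, read 6.76, 6.92 and 6.76 in controls and 6.97, 7.66 and 7.53 after bevacizumab (0.57, adjusted p = 0.0846). The groups did not overlap, and ENG passed without bevacizumab 1. ACVRL1, the endothelial type I receptor, was under 4 on every array. Of 10 endothelial markers 8, CDH5, KDR and VWF among them, were under 4 on all arrays. The summed linear signal of the 10 was 168 to 180.2 on control arrays and 172 to 205 on treated ones. On human probe sets such low values do not show whether mouse endothelium was present.

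Genes that store, release or trap the ligands had 5 of 14 called higher and 2 lower (median 0.42), beside 9.09% and 9.97% of all genes tested. FST, follistatin, which binds and neutralises activin, read 6.42, 6.63 and 5.92 in controls and 8.45, 9.17 and 8.51 after bevacizumab. The groups stood far apart, and the difference was 2.38 (SE 0.26, limma adjusted p = 0.00504), or 5.22-fold, on 3 of 3 probe sets. FSTL1, a secreted follistatin-like protein, rose by 1.09. FBN1, the fibrillin to which LTBP1 attaches, rose by 0.86. ITGB8, a subunit of the integrin that activates TGF-beta on the cell surface, rose by 0.60, on the 1 of 5 probe sets bright enough to test. That probe set did not pass over all probe sets (limma adjusted p = 0.0553). BGN, a matrix proteoglycan named after its value was seen, rose by 0.51 (limma adjusted p = 0.0438). None of its 3 tested probe sets passed over all probe sets, and BGN was not followed in the fits without 1 array. THBS1, thrombospondin 1, an activator of latent TGF-beta, read 10.98, 10.23 and 10.61 in controls and 9.61, 9.13 and 9.30 after bevacizumab. It fell by 1.26 (SE 0.22, adjusted p = 0.0156), a call lost without control 1, control 3 or bevacizumab 2. ASPN, a TGF-beta binding proteoglycan, fell by 1.40, a call lost without control 1, control 2, control 3 or bevacizumab 2. ITGB8 lost its call in 5 of the 6 such fits. FSTL3, LRRC32 and NRROS were under 4 on every array.

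SMAD genes themselves did not pass. SMAD2 (0.20, limma adjusted p = 0.315), SMAD3 (0.57, adjusted p = 0.258) and SMAD4 (-0.33, adjusted p = 0.0604) lay on either side of 0, and SKI, the relative of SKIL, was at 0.16 (adjusted p = 0.392). The probe sets of SMAD4 disagreed, running from -0.33 to 0.31, and 2 of 4 tested SMAD2 probe sets were called higher on their own. Where 9.09% of all genes tested were called higher and 9.97% lower, 3 of the 14 in this list rose and none fell (median 0.21). They were PPM1A, a phosphatase that acts on SMADs (0.62), TGIF1, a SMAD corepressor (0.69), and NEDD4L, a ubiquitin ligase for activated SMADs (0.70). PPM1A passed on 1 of 6 tested probe sets, which ran from -0.01 to 1.06, and not with their mean (0.35, adjusted p = 0.241). Each lost its call in at least 2 of the fits without 1 array.

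Genes that TGF-beta is known to induce did not move as a block. Of 21 tested, 5 were called higher, 3 lower and 13 neither, with a median of 0.14. Over all genes tested 9.09% were called higher and 9.97% lower. ANGPTL4, a lipase inhibitor that is also induced by hypoxia, rose by 2.52, TGM2, a transglutaminase, by 1.82 and TGFBI, a matrix protein, by 1.35. The AP-1 gene JUNB rose by 0.94 and TGIF1 by 0.69. The TGM2 call was lost whichever control was left out, and that of JUNB without control 1 or control 2. The other tested TGM2 probe set had a difference of 0.75 and did not pass (limma adjusted p = 0.201 over all probe sets). The cytoskeletal genes TAGLN (-2.16) and ACTA2 (-1.79), both also smooth muscle genes, fell. CCN2, a matricellular protein gene, read 10.52, 10.24 and 9.89 in controls and 9.07, 9.42 and 8.89 after bevacizumab, and fell by 1.09 (SE 0.21, limma adjusted p = 0.0197), a call lost without control 1, control 2 or bevacizumab 3. The feedback genes SMAD7 (0.14, adjusted p = 0.508) and PMEPA1 (0.19, adjusted p = 0.533) did not pass. COL1A1 (-0.03), COL1A2 (0.17), FN1 (0.08) and SNAI2 (0.06), named after their values were seen, did not pass either. The tested probe sets ran from -0.03 to 0.67 for COL1A1 and from -0.99 to 0.14 for FN1, and none was called.

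**Figure D3:**
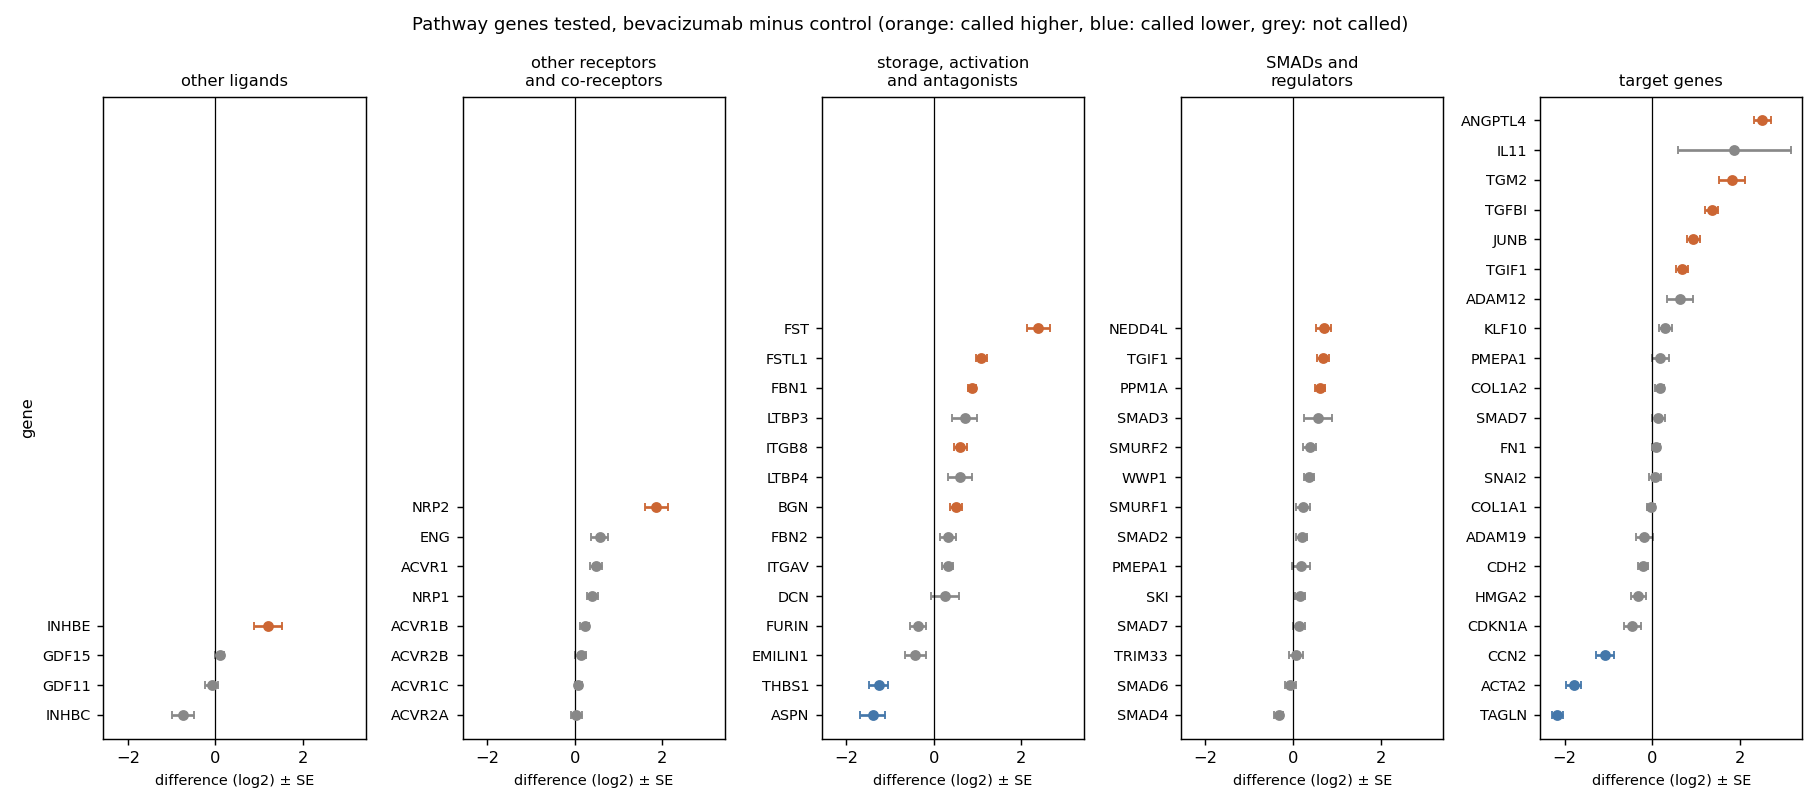
Difference between bevacizumab and control arrays (log2, horizontal axis, ± SE of the limma fit) for the genes tested in each of 5 pathway lists, sorted by size. FST, NRP2 and ANGPTL4 stand farthest right among called genes, and TAGLN, ACTA2, ASPN, THBS1 and CCN2 farthest left.

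Bevacizumab 3 carried the highest value of the 6 arrays in 12 of the 21 target genes tested (57.1%). It was also highest in 5 of the 10 members (50%), against 19.7% of all genes tested. In the other lists it was highest in 2 of 4 ligands, 4 of 8 receptors and 5 of 14 storage, activation and antagonist genes. Of the 14 SMAD list genes it was highest in 3 (21.4%), and bevacizumab 2 in 7 (50%, against 21.8% of all genes). Differences lay above 0 in 8 of the 10 members, 13 of the 21 target genes and 4948 of all 10233 genes tested. IL11, a cytokine gene induced by TGF-beta, read 3.69, 3.11 and 8.15 on bevacizumab 1, 2 and 3 and 3.07 to 3.15 on controls. ADAM12, a protease gene, read 11.64, 11.89 and 12.79 after bevacizumab and 11.42 to 11.57 on controls, so that all treated arrays lay above the controls and bevacizumab 3 highest. PMEPA1 read 10.40, 10.23 and 10.93 against 10.18 to 10.50, and SMAD7 4.86, 4.90 and 5.32 against 4.87 to 4.90. None of the 4 passed the test, and all were picked for display after their values were seen. Without bevacizumab 3 the differences of SMAD7 and PMEPA1 were -0.0085 and -0.017.

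**Figure D4:**
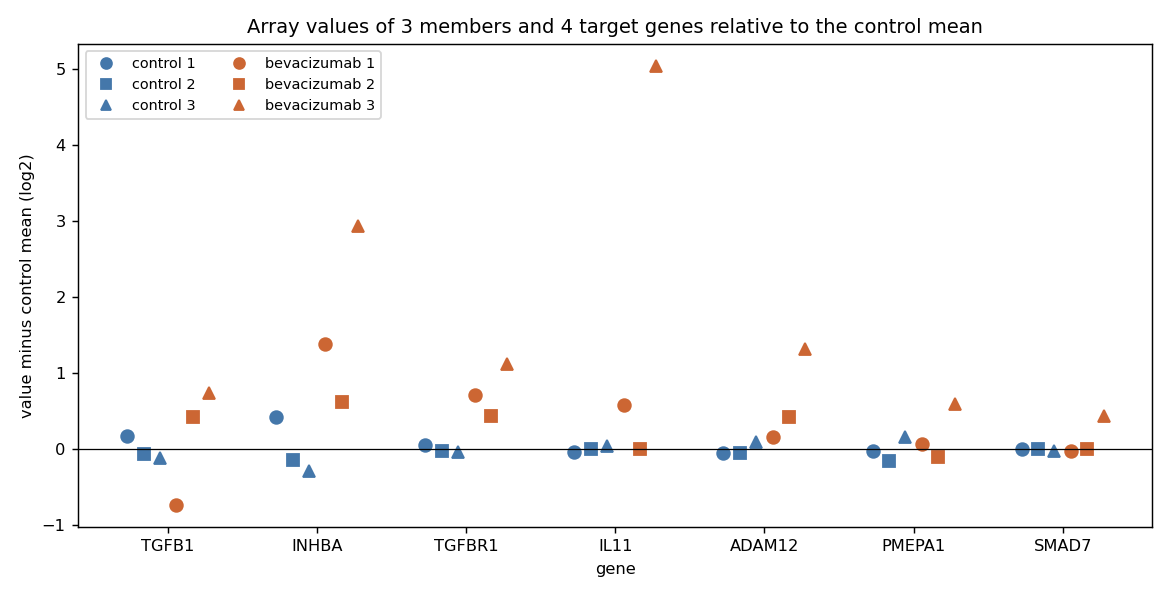
Value on each array minus the control mean (log2, vertical axis) for 3 members and 4 target genes chosen after their values were seen; symbols give the array and colours the group. Bevacizumab 3 is the highest array in each of the 7 genes, by the most for IL11 and INHBA.

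On the series as a whole, the labelled cell type was checked against glioma markers. VIM, CD44, NES, CHI3L1 and EGFR were bright, and FABP7 was dim (5.00 in controls and 6.01 after bevacizumab). SOX2 was under 4 on 5 of the 6 arrays and was not tested. GFAP, OLIG2 and S100B were under 4 on every array, and so were CDKN2A, CDKN2B and MTAP, which U87 lacks. Of the bright ones NES was called lower (-1.18), and EGFR (1.22) and CHI3L1 (1.60) were called higher after bevacizumab. Array medians lay between 2.49 and 2.51. The log2 difference between 3′ and 5′ probe sets of ACTB, a sign of RNA quality, was 1.38 in controls and 1.81 after bevacizumab (two-sided exact permutation p = 0.2, where 0.1 is the smallest possible). That of GAPDH was -0.12 in controls and -0.02 after bevacizumab, with no overlap between the groups (two-sided exact permutation p = 0.1). With the ACTB difference as a covariate no member passed, while the estimates were -0.85 for TGFB3 (adjusted p = 0.0621), 0.67 for LTBP1 (adjusted p = 0.0867) and 1.01 for TGFBR1 (adjusted p = 0.113). Of 11 macrophage markers 10 were under 4 on every array, with a summed linear signal of 88.6 to 97.2 in controls and 86.7 to 88.5 after bevacizumab. Among 10 fibroblast markers 1 rose (DPT) and 1 fell (COL3A1), and their summed signal ran from 115622 to 130160 and from 104201 to 117270. Low values on human probe sets do not show whether mouse cells were present. Which cells, of the tumour or of the host, gave the fibroblast marker signal was not tested. The part of these cell types in the differences above was not tested either.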

How the data were processed

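RNA was measured on 6 one-colour Affymetrix arrays, 3 per group. The values are the authors' deposited GCRMA expression values on the log2 scale (software in the submitters' processing notes: GCOS 1.1.1.052 and GCRMA). The scale was inferred from the values, which run from 2.23 to 15.99. Settings of GCRMA and array dates are not given in the sources used here. Between 33.3% and 34.3% of probe sets sat at the lowest value.

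Symbols came from the platform annotation, updated by gene identifier to RefSeq. Each gene was represented by its brightest single-gene probe set on average, and 10233 genes with a mean of at least 4 were tested across the genome with limma 3.58.1 in R 4.3.3 (two-sided, Benjamini-Hochberg). Probe sets were also tested singly. The number of arrays limits the precision. The steps were tested on simulated data. All members, the called pathway genes (up to 6 per list, smallest p first) and a set of genes chosen by name are given, except 1 that is not reported here; others carry a remark. Members and lists were chosen with earlier results of these data known. No table of protein sequences was used here. Deviations of same-numbered arrays correlated at -0.05, -0.01 and -0.05, so the numbers were not taken as pairs.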

Additional observations from a re-analysis of the deposited data

How the results depend on the processing

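Counts are of member genes unless stated. The 2 higher and 1 lower were 0 and 0 with the ACTB covariate, 1 higher without the filter on dim genes and 1 with the replicate block; leaving out 1 array gave 1 to 3 higher and 1 lower throughout. Probe sets called higher, 3 as reported, were 0 with the ACTB covariate, without the filter and with the replicate block, and 0 to 1 without 1 array; the 1 called lower was 0 with the ACTB covariate. Array weights gave 2 higher. Over all genes the 1950 calls became 24 with the ACTB covariate, 598 without the filter, 904 with the replicate block and 558 to 2074 without 1 array (578, 558 and 897 without control 1, 2 or 3, 1075 without bevacizumab 2). Pathway genes called higher, 14, became 1, 5 and 10 in those settings in the same order (ACTB covariate, no filter, replicate block) and 6 to 14 without 1 array; those called lower, 5, became 1 and 2 with the covariate and without the filter and 2 to 5 without 1 array. Signs turned without bevacizumab 3 for TGFB1 (-0.15 to 0.59 over the fits without 1 array), SMAD7 (-0.0085 to 0.22) and PMEPA1 (-0.017 to 0.33), with the mean of all probe sets for TGFBR2 (-0.097) and SMAD4 (0.029), and for SMAD2 (-0.046) with the ACTB covariate; none was called as reported. TGFB3 and LTBP1 each kept their call in 15 of 16 alternatives and TGFBR1 in 9 of 16. With the mean of all probe sets TGFB3 was -0.44, since its other probe set is at the table minimum. The replicate block leaves fewer residual degrees of freedom. The causes were not tested. The planned comparison of protein sequences was not run.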

Other observations

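The spread of single members within the treated group ran from among the smallest to among the largest on these arrays. The SD over the 3 bevacizumab arrays was 1.18 for INHBA, larger than that of 99.5% of all genes tested, and 0.78 for TGFB1, larger than that of 98.2%. In the controls the SDs of these genes were 0.37 and 0.15. TGFB3 sat at the other end, with an SD of 0.04 after bevacizumab, larger than that of 7.32% of genes. TGFBR1 and TGFBR3 had control SDs of 0.05 each and bevacizumab SDs of 0.35 and 0.38. With 3 arrays a group, the difference in spread was not tested.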
